A study of Mus musculus with 10 samples.

Results

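Interferon-induced genes are described here through 9 listed genes, namely Ifitm3, Bst2, Isg15, Ifit3, Oasl2, Rtp4, Ifi27l2a, Irf7 and Ifi204, out of the 52181 gene entries of the table. They are a list of names of interferon targets, put together with earlier results of these data known, and each was found once by its Ensembl identifier. Transcripts of mouse macrophages and microglia were read cell by cell with a droplet method (10x v2, 3' ends), and molecules were counted through unique molecular identifiers (UMIs). The 4 groups were injured optic nerve (libraries 1 and 3), uninjured optic nerve (libraries 2 and 4), injured retina (samples 1 to 4, read as the pools "1 and 2" and "3 and 4") and uninjured retina (libraries 5 and 6). All mice were Wildtype, of both sexes, with 129S1/SvlmJ as the strain label. They were 10 weeks old at collection by the design text, whereas the strain label also gives postnatal day 56. Injured tissue came 2 weeks after an optic nerve crush, a lesion of the axons of retinal ganglion cells, done at 8 weeks, and the uninjured groups carry no other labelled difference. A library was the unit of replication, with 2 per group. Nothing states that libraries came from separate animals, so p-values measure the spread between these libraries, which may be technical.

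Interferons are cytokines that bind paired surface receptors and act through Janus kinases and STAT factors. Genes induced by type I interferons often carry the interferon-stimulated response element (ISRE) in their promoters, whereas interferon gamma acts largely through the gamma-activated sequence (GAS). Microglia and macrophages are known to take up this program during infection, ageing and injury, often in a minority of cells. Among the listed genes Ifitm3 is a membrane protein that restricts virus entry, and Bst2 (tetherin) holds budding virions at the cell surface. Isg15 is a ubiquitin-like modifier, Ifit3 belongs to the IFIT family of antiviral RNA-binding complexes, and Oasl2 is related to the oligoadenylate synthetases. Rtp4 is a receptor transporter protein whose transcript is induced by interferon, and Ifi27l2a is a small membrane protein of the ISG12 family. Irf7 is the transcription factor that amplifies type I interferon production, and Ifi204 is a DNA-binding protein of the HIN-200 family.

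Promoter windows (250 bases before to 50 after the start site, RefSeq, GRCm38.p6) were matched by symbol for 6 of the 9 genes, namely Isg15, Oasl2, Ifitm3, Irf7, Bst2 and Ifit3. The ISRE core was searched as GAAA, any 2 bases and GAAA on either strand (which reads TTTC, any 2 bases and TTTC where it lies on the other strand), overlapping matches included. It was found in 4 of these 6 windows, against 3.44% of 32851 promoter windows (1131). The stretches that hold it are shown because they are the sequence feature these genes share, with the matched bases in capitals, 5' to 3' on the gene's strand. The Ifitm3 stretch lies just after the start site and the others before it.
Isg15, chr4:156200855-156200916, minus strand: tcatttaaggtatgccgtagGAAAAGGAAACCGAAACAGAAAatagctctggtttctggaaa
Bst2, chr8:71537567-71537622, minus strand: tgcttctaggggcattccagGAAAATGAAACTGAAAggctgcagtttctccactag
Ifit3, chr19:34583353-34583436, plus strand: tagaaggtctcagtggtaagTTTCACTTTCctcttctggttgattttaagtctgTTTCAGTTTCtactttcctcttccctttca
Ifitm3, chr7:141010716-141010742, minus strand: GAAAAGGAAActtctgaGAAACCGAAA
Isg15 held 3 overlapping matches, and Bst2, Ifit3 and Ifitm3 held 2 each. The GAS motif TTCNNNGAA, which reads the same on both strands, was found in the windows of Ifitm3 (TTCTGAGAA, between its 2 ISRE matches and sharing bases with the second) and Bst2 (TTCCAGGAA, sharing bases with its first ISRE match), against 8.30% of all windows. No match was found for either motif in the windows of Oasl2 and Irf7. A match is a description of the sequence and not a measured binding site.

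In GENCODE M21 (GRCm38) all 9 are protein-coding genes. Ifitm3 (ENSMUSG00000025492) lies on chromosome 7 at 141009586 to 141010770 and Bst2 (ENSMUSG00000046718) on chromosome 8 at 71534255 to 71537456. Ifi27l2a (ENSMUSG00000079017) lies on chromosome 12 at 103442167 to 103443680 and Ifi204 (ENSMUSG00000073489) on chromosome 1 at 173747293 to 173766943, all 4 on the minus strand. None of these 4 genes overlaps another gene, whereas Irf7 overlaps Phrf1, and Rtp4 overlaps Masp1 and Gm45338. Near-identical copies could take reads from 2 of the 9. Of the 50-base windows in the last 500 bases of the longest protein-coding transcript, 14.9% for Ifit3 occurred in Ifit3b and 14.0% for Ifitm3 in Ifitm1, Ifitm2, Gm11951, Gm45717 or Gm7676, against at most 2.22% for the other 7, so levels of Ifit3 and Ifitm3 carry that uncertainty.

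The table held 1168 cells and 7920570 UMIs. Libraries held 12 to 682 cells, with median depths of 1078 to 12989 UMIs per cell. All 12 markers of a microglia list were seen, and their summed level was 10691 to 26162 CPM (UMIs scaled to the library's total) over the 8 libraries. Cells were also clustered without the listed genes and without other interferon pathway genes. Besides 5 clusters that met no naming rule (930 cells, with 6 to 12 of the 12 microglia markers seen in at least 25% of cells, by cluster), this gave 87 border macrophage-like cells (led by Mrc1, F13a1, Lyve1 and Cd163, and by the chemokines Ccl7 and Ccl2), 95 oligodendrocyte-like and 47 T and NK-like cells, and 9 endothelial-like cells were called by their markers. T and NK-like cells made up 20.2% and 42.1% of cells in the injured retina pools, against 0 in uninjured retina. Border macrophage-like cells made up 6.16% and 4.55% of cells in injured optic nerve libraries 1 and 3, against 42.7% and 3.57% in uninjured libraries 2 and 4. Uninjured retina held no UMI in the later entries of the gene list, whereas the other libraries did. Its annotation or merging therefore differed. This cannot be told apart from injury in retina, from the interaction of injury with tissue, or from tissue among uninjured libraries. All 9 genes lie in the earlier entries, and each had UMIs in both tissues. In uninjured retina itself, however, Rtp4 had 0 UMIs and Ifi204 had 1. Some other earlier entries had UMIs in 1 tissue only. Ifi30 (653 UMIs), Tmem173 (155 UMIs) and Cgas (110 UMIs) were seen in retina but had 0 UMIs in every optic nerve library. The entries kept for optic nerve may therefore differ as well, which cannot be told apart from tissue.

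Of the 9 genes, 3 were counted deeply enough for most comparisons, with 1465 UMIs for Ifitm3 in 271 cells, 1127 for Bst2 in 411 cells and 858 for Ifi27l2a in 254 cells. Ifi204 had 185 UMIs and Isg15 125. The other 4 had 20 (Oasl2) to 56 (Irf7) UMIs in 14 to 35 cells, so that 1 cell can set a library's value. All levels below are CPM of UMIs summed per library, and each interval of a fold of summed UMIs covers counting error only.

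**Figure D1:**
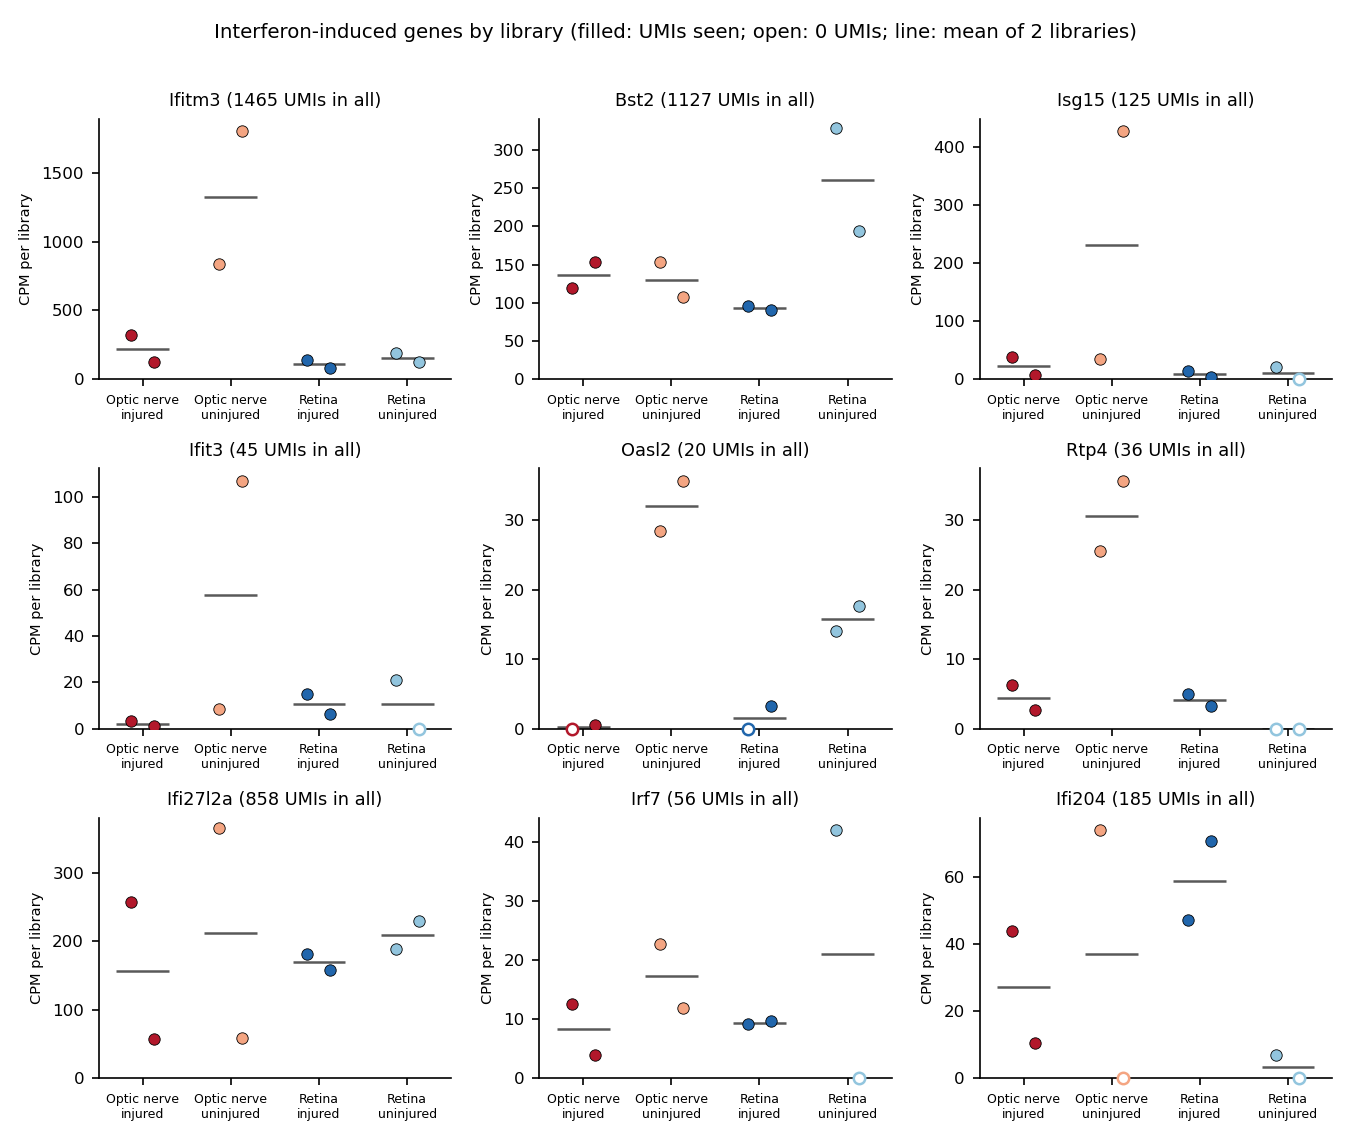
CPM of each gene in each library (points, open where 0 UMIs were seen), with the mean of the 2 libraries of a group as a line. Bst2 stands at 96.4 and 90.1 CPM in injured retina and at 329 and 194 CPM in uninjured retina. Ifitm3 stands at 320.0 and 125 CPM in injured optic nerve and at 839.7 and 1807 CPM in uninjured optic nerve. Of the 152 UMIs behind the value of 1807 CPM, 103 lay in 1 cell. Of the 654 UMIs behind the value of 125 CPM, 149 lay in 1 cell and 130 in another.

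In injured against uninjured retina, the virion-tethering Bst2 was lower and the DNA-binding Ifi204 higher, while Ifitm3 and Ifi27l2a did not pass the test. Bst2 had 96.4 and 90.1 CPM in injured retina (137 and 28 UMIs), against 329 and 194 CPM in uninjured retina (47 and 11 UMIs). Both injured pools lay below both uninjured libraries. The log2 change was -1.57 ± 0.34 (SE), a 2.96-fold lower level (edgeR adjusted p = 0.00977). A Bst2 UMI was seen in 56.9% and 22.8% of cells of the injured pools, against 61.3% and 66.7% of cells in uninjured libraries 5 and 6.

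Ifi204 had 47.2 and 70.8 CPM in injured retina (67 and 22 UMIs), against 7.003 and 0 CPM in uninjured retina (1 and 0 UMIs). The groups did not overlap, but the uninjured level rests on a single UMI. The log2 change was 3.36 ± 0.96 (edgeR adjusted p = 0.0306). The fold of summed UMIs was 10.3, with an interval of 1.79 to 410. Cells with an Ifi204 UMI made up 29.4% and 17.5% of the injured pools, against 3.23% of library 5 and 0 of 12 cells of library 6, where the count of 0 allows up to 25% of cells with a UMI. Median depths were 12989 and 3853 UMIs in the injured pools, against 4250 and 4712 UMIs in the uninjured libraries, and at an equal depth of 1000 UMIs the shares were 3.74% and 3.26% in the injured pools, against 0.971% and 0% in the uninjured libraries.

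These were 2 of the 4 listed genes that passed the filter on low counts, beside 19.7% of the 3312 genes tested by edgeR. The median log2 change was -0.36 over the 4 genes and 0.07 over all genes. Ifitm3 had 142 and 83.6 CPM in injured retina, against 189 and 123 CPM in uninjured retina, and the groups overlapped (log2 change -0.48 ± 0.40, edgeR adjusted p = 0.419). Ifi27l2a had 181 and 158 CPM in injured retina, against 189 and 229 CPM in uninjured retina (log2 change -0.24 ± 0.30, edgeR adjusted p = 0.605). Its groups did not overlap, but their difference was smaller than its error.

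The other 5 genes had too few UMIs in retina for the test. Isg15 had 14.1 and 3.22 CPM in injured retina, against 21.01 and 0 CPM in uninjured retina. Ifit3 had 14.8 and 6.43 CPM in injured retina, against 21.01 and 0 CPM in uninjured retina. Irf7, the transcription factor, had 9.15 and 9.65 CPM in injured retina, against 42.0 and 0 CPM in uninjured retina. For these 3 genes the uninjured libraries lay on either side of the injured pools. Oasl2 had 0 and 3.22 CPM in injured retina, against 14.0 and 17.6 CPM in uninjured retina, from 1 and 3 UMIs in all. Rtp4 had 4.93 and 3.22 CPM in injured retina and no UMI in uninjured retina, where a count of 0 allows up to 21.01 CPM in library 5 and 52.8 CPM in library 6, above its level in both injured pools. Over the 9 genes, 5 had groups that did not overlap (2 higher and 3 lower), beside 45.3% of 12842 genes in the same libraries.

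T and NK-like cells, at 20.2% and 42.1% of the injured pools, had 49.5 CPM of Bst2 and 12.4 CPM of Ifi204. In the unnamed clusters alone Bst2 had 101 and 98.6 CPM in injured retina, against 326 and 194 CPM in uninjured retina, and Ifi204 had 49.6 and 83.4 CPM, against 7.24 and 0 CPM. With T and NK-like, oligodendrocyte-like and endothelial-like cells left out, the changes were -1.42 for Bst2 (edgeR adjusted p = 0.0109) and 3.53 for Ifi204 (edgeR adjusted p = 0.0223). The Bst2 call did not hold without uninjured library 5 (-0.72, edgeR adjusted p = 0.462), and Ifitm3 was then at 0.27. The Ifi204 call was lost with DESeq2 (adjusted p = 0.149), without injured pool 1 and 2 (edgeR adjusted p = 0.135) and without uninjured library 5 (edgeR adjusted p = 0.0727), and without injured pool 3 and 4, or without all 4 named classes, the gene did not pass the low-count filter.

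In optic nerve, 8 of the 9 genes had a lower and 1 a higher level over the summed UMIs of injured than of uninjured libraries, but none of the 3 that could be tested passed with limma. The share of all genes lower by this measure was not computed. The injured sums mostly reflect library 3, with 5234954 UMIs against 318715 in library 1. Ifitm3 had 320.0 and 125 CPM in injured libraries 1 and 3 (102 and 654 UMIs), against 839.7 and 1807 CPM in uninjured libraries 2 and 4 (295 and 152 UMIs). In CPM both injured libraries lay below both uninjured ones. The shares of cells with an Ifitm3 UMI overlapped, at 13.7% and 17.89% in injured libraries 1 and 3, against 48.5% and 17.86% in uninjured libraries 2 and 4. The share in library 4 was 5 of 28 cells, and these shares are at unequal depth. At the equal depth used above for Ifi204, with shallower cells dropped, the shares were 13.4% and 5.74% in injured libraries 1 and 3. They were then 35.1% and 22.9% in uninjured libraries 2 and 4, with no overlap, and library 4 held 19 cells. On the scale limma was run on, the mean of ln(1 + 10000 times UMIs over the cell's total), the difference was -0.55 ± 0.16 (limma adjusted p = 0.190). Ifi27l2a had 257 and 56.7 CPM in injured libraries, against 364 and 59.4 CPM in uninjured libraries, and the groups overlapped (-0.12 ± 0.14, limma adjusted p = 0.953). Bst2 had 119 and 153 CPM in injured libraries, against 154 and 107 CPM in uninjured libraries, and did not differ beyond its error (0.10 ± 0.13, limma adjusted p = 0.960).

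limma therefore called 0 of the 3 listed genes it tested, beside 0.566% of 5298 genes. Of the 3, 1 (Ifitm3) had an unadjusted limma p under 0.05, at 0.00262. The median difference was -0.12 over the 3 and -0.02 over all genes. edgeR on recovered counts called Ifitm3 (log2 change -2.39 ± 0.50, edgeR adjusted p = 0.0449), beside 0.962% of 5508 genes. Without injured library 1 edgeR called 5 listed genes as lower (Isg15, Ifitm3, Ifi27l2a, Ifi204 and Ifit3), beside 5.5% of 7040 genes. Without uninjured library 2 it called 3 (Isg15, Ifitm3 and Ifit3), beside 0.746% of 6967 genes, and without injured library 3 or uninjured library 4 it called 0. limma called Ifitm3 without uninjured library 4 (-0.84, limma adjusted p = 0.0252).

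The 6 genes with fewer UMIs did not pass the filter used with limma. Without a filter limma called none of them, with the smallest p for Rtp4 (-0.06 in mean ln value, limma adjusted p = 0.384). edgeR on recovered counts did not call Isg15 (log2 -3.39, edgeR adjusted p = 0.152) or Ifi204 (log2 -1.22, edgeR adjusted p = 0.580). Isg15 had 37.7 and 7.83 CPM in injured libraries, against 34.2 and 428 CPM in uninjured libraries, and the groups overlapped. Ifit3 had 3.14 and 1.15 CPM in injured libraries, against 8.54 and 107 CPM in uninjured libraries. A single endothelial-like cell of uninjured library 4 carried all 36 Isg15 and all 9 Ifit3 UMIs of that library, 103 of its 152 Ifitm3 UMIs, all 3 of its Oasl2 UMIs and 2 of its 3 Rtp4 UMIs. Oasl2 had 0 and 0.573 CPM in injured libraries (0 and 3 UMIs), against 28.5 and 35.7 CPM in uninjured libraries (10 and 3 UMIs). Its fold of summed UMIs, uninjured over injured, was 55.3, with an interval of 15.2 to 302, and the part of it from library 4 rests on that 1 cell.

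Rtp4 had 6.28 and 2.67 CPM in injured libraries (2 and 14 UMIs), against 25.6 and 35.7 CPM in uninjured libraries (9 and 3 UMIs). Irf7 had 12.6 and 4.01 CPM in injured libraries, against 22.8 and 11.9 CPM in uninjured libraries, with a narrow overlap. Ifi204 had 43.9 and 10.5 CPM in injured libraries, against 74.0 and 0 CPM in uninjured libraries, so that the uninjured libraries lay on either side of the injured ones. In all, 4 of the 9 (Ifitm3, Ifit3, Oasl2 and Rtp4) were lower in both injured libraries than in both uninjured ones, beside 20% of 14957 genes lower without overlap in optic nerve and 32% without overlap in either direction.

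Most Ifitm3 UMIs of each optic nerve library came from cells outside the unnamed clusters. Of the 295 Ifitm3 UMIs of uninjured library 2, 75.3% lay in border macrophage-like cells, which made up 42.7% of its cells and 58.6% of its UMIs, and 7.46% in the unnamed clusters. In uninjured library 4, 2 endothelial-like cells held 30.3% of all UMIs, and the unnamed clusters (21 cells) held no Ifitm3 UMI. In injured library 3, 1 cell held 149 of the 654 Ifitm3 UMIs, and another cell, endothelial-like, held 130. Markers of other cells moved with injury too. All 9 markers of the oligodendrocyte list were seen and summed to 3549 and 581 CPM in injured libraries 1 and 3, against 8220 and 5623 CPM in uninjured libraries 2 and 4, and all 14 endothelial markers to 87.9 and 219 CPM in injured libraries, against 359 and 4315 CPM in uninjured libraries. Their part in the result was not tested. Within border macrophage-like cells Ifitm3 had 1607 and 644 CPM in injured libraries 1 and 3 (9 and 31 cells), against 1078 CPM in uninjured library 2 (44 cells). Library 4 had 1 such cell. The uninjured value lay between the injured ones. Without all 4 named classes the Ifitm3 difference was -0.09 ± 0.14 (limma adjusted p = 0.868), and -1.31 ± 0.76 in log2 by edgeR (adjusted p = 0.365).

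**Figure D2:**
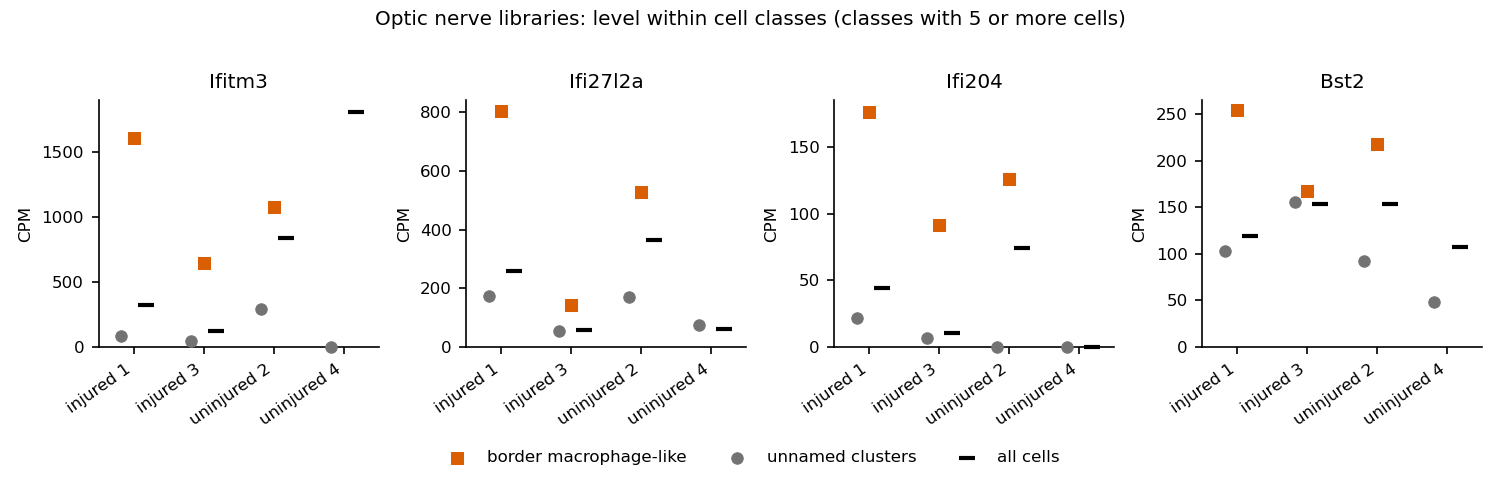
CPM of 4 genes in the 4 optic nerve libraries, for border macrophage-like cells (squares), for the unnamed clusters (circles) and for all cells (dashes), where a class had 5 or more cells. Ifitm3 in border macrophage-like cells stands at 1607 and 644 CPM in injured libraries 1 and 3 and at 1078 CPM in uninjured library 2, above the unnamed clusters of the same libraries at 82.0, 47.7 and 290 CPM.

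Ifi27l2a, Bst2 and the less deeply counted Ifi204 showed the same arrangement in border macrophage-like cells. Ifi27l2a had 803 and 144 CPM in injured libraries 1 and 3, against 529 CPM in uninjured library 2. Ifi204 had 176 and 91.2 CPM in injured libraries 1 and 3, against 126 CPM in uninjured library 2, from 9, 19 and 26 UMIs. Bst2 had 255 and 168 CPM in injured libraries 1 and 3, against 219 CPM in uninjured library 2. For all 3 genes, as for Ifitm3, the uninjured value lay between the 2 injured values, and the class was above the unnamed clusters in each of these 3 libraries. With 1 uninjured library of enough cells, no test of injury within the class could be made.

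By limma the effect of crush on Bst2 differed between the tissues, a call that depended on the fit. The interaction, the injury effect in optic nerve (0.10) minus that in retina (-0.57, both in mean ln value), was 0.66 ± 0.18 (limma adjusted p = 0.0402). It was the only one of the 3 listed genes tested that passed, beside 5.61% of 5298 genes. The interaction was -0.36 ± 0.22 for Ifitm3 (limma adjusted p = 0.348) and -0.30 ± 0.20 for Ifi27l2a (limma adjusted p = 0.368). The Bst2 call did not hold when any of the 6 libraries other than those of uninjured retina was left out (limma adjusted p of 0.0549 to 0.182), nor with edgeR on recovered counts (log2 1.72, edgeR adjusted p = 0.168), which called none of the listed genes, beside 1.31% of 5508 genes. The sign was the same in each of these fits. With no filter (limma adjusted p = 0.113), in cells with at least 1000 UMIs (limma adjusted p = 0.0521) and on log2(CPM + 10) (limma adjusted p = 0.195) Bst2 was not called either. It was called where a UMI was needed in 10% of cells of at least 2 libraries (limma adjusted p = 0.0448).

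Between the tissues, limma called Bst2 lower in optic nerve without crush and Ifi27l2a lower in optic nerve after crush, and neither call held in all fits. Uninjured optic nerve had 154 and 107 CPM of Bst2, against 329 and 194 CPM in uninjured retina, with no overlap, and the difference in mean ln value was -0.70 ± 0.13 (limma adjusted p = 0.00180). This was 1 of 3 listed genes called, beside 10% of 5298 genes. The call was lost without uninjured optic nerve library 4 (-0.60, limma adjusted p = 0.0516) and with edgeR on recovered counts (log2 -1.09, edgeR adjusted p = 0.221). It was also lost with limma on log2(CPM + 10) (-0.92, limma adjusted p = 0.156), which called Ifitm3 in its place (2.93, limma adjusted p = 0.00656), beside 6.78% of 5298 genes. Ifitm3 did not pass by limma between the uninjured tissues (0.30 ± 0.16, limma adjusted p = 0.241), whereas edgeR on recovered counts called it higher in optic nerve (log2 2.87, edgeR adjusted p = 0.0163), beside 2.18% of 5508 genes. Without all 4 named classes that Ifitm3 difference was 0.07 in log2 (edgeR adjusted p = 0.973), and -0.22 in mean ln value (limma adjusted p = 0.341). With no filter on low values limma also called Rtp4 (0.07 in mean ln value), beside 3.07% of 11904 genes. Over all 9 genes, 5 did not overlap between the uninjured tissues (Ifitm3, Isg15, Oasl2 and Rtp4 higher, Bst2 lower in optic nerve), beside 38.5% of 13221 genes. That share also covers genes with UMIs in 1 tissue only. Rtp4, at 25.6 and 35.7 CPM in optic nerve, had 0 UMIs in uninjured retina. There a count of 0 allows up to 21.01 and 52.8 CPM, so a higher level of Rtp4 is not shown. Isg15, at 34.2 and 428 CPM in optic nerve, also had 0 UMIs in retina library 6. Oasl2 had 13 against 3 UMIs, and the interval of its fold of summed UMIs was 0.546 to 10.9.

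In injured tissue Ifi27l2a had 257 and 56.7 CPM in optic nerve, against 181 and 158 CPM in retina, and these overlapped. Its mean ln value was lower in optic nerve (-0.43 ± 0.14, limma adjusted p = 0.0498). A UMI was seen in 15.1% and 14.2% of optic nerve cells, against 55.0% and 43.9% of retina cells. Median depths were 1078 and 2060.5 UMIs in these optic nerve libraries and 12989 and 3853 UMIs in the retina pools, so these shares are at unequal depth. At an equal depth of 1000 UMIs they were 11.6% and 4.80% in optic nerve, against 14.4% and 17.8% in retina. Ifi27l2a was 1 of 3 listed genes called, beside 13.5% of 5298 genes. Without T and NK-like, oligodendrocyte-like and endothelial-like cells limma did not call Ifi27l2a (-0.31, limma adjusted p = 0.183). It did not do so in cells with at least 1000 UMIs either (-0.39, limma adjusted p = 0.158), but did without all 4 named classes (-0.35, limma adjusted p = 0.0467). T and NK-like cells held 26.5% and 34.7% of the Ifi27l2a UMIs of the retina pools. The call was lost without either injured retina pool or either injured optic nerve library (limma adjusted p of 0.0989 to 0.275) and with edgeR on recovered counts, which called none of the 3, beside 6.95% of 5508 genes. Over all 9 genes, 3 had groups that did not overlap between the injured tissues (Bst2 higher, Ifit3 and Ifi204 lower in optic nerve), beside 43% of 15386 genes. That share, too, covers genes with UMIs in 1 tissue only. Bst2 (-0.04 ± 0.13, limma adjusted p = 0.881) and Ifitm3 (-0.06 ± 0.16, limma adjusted p = 0.845) did not pass between the injured tissues.

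The listed genes were spread unevenly over cell classes, in whose clustering they had no part. Ifitm3 had 1019.9 CPM in border macrophage-like cells, 3928 CPM in the 9 endothelial-like cells, 215 CPM in oligodendrocyte-like cells, and 71.6 CPM in the unnamed clusters. No T and NK-like cell carried an Ifitm3 UMI (0 of 47, which allows up to 18.6 CPM). Median depths were 2422 UMIs in this class, 2564 UMIs in the unnamed clusters and 2820 UMIs in border macrophage-like cells, but 22 and 24 of its 47 cells came from the injured retina pools, and free RNA was not measured. The 9 endothelial-like cells, 0.771% of cells, held 28.9% of all Ifitm3 UMIs.

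Ifi27l2a was arranged differently. It had 526 CPM in T and NK-like cells and 377 CPM in border macrophage-like cells, 82.7 CPM in the unnamed clusters and 61.4 CPM in oligodendrocyte-like cells. No endothelial-like cell carried it (0 of 9, which allows up to 27.8 CPM). In the injured retina pools T and NK-like cells held 26.5% and 34.7% of the Ifi27l2a UMIs. Within the unnamed clusters Ifi27l2a had 144 and 121 CPM in injured retina, against 196 and 229 CPM in uninjured retina.

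Bst2 followed the bulk of the cells. The unnamed clusters held 89.1% of its UMIs and 87.9% of all UMIs, at 144 CPM, with 192 CPM in border macrophage-like cells and 157 CPM in endothelial-like cells. It was lower in T and NK-like (49.5 CPM) and oligodendrocyte-like cells (20.5 CPM). At an equal depth of 1000 UMIs a cell, a Bst2 UMI was expected in 12.4% of cells of the unnamed clusters and 13.6% of border macrophage-like cells, against 1.296% of oligodendrocyte-like cells (38.3%, 46.0% and 3.16% before thinning).

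The genes with fewer UMIs were mostly higher in border macrophage-like cells than in the unnamed clusters. Ifi204 had 112 CPM (55 UMIs) against 17.9 CPM (125 UMIs), Rtp4 26.5 CPM (13 UMIs) against 2.01 CPM (14 UMIs), and Oasl2 18.4 CPM (9 UMIs) against 0.574 CPM (4 UMIs). All 9 of those Oasl2 UMIs came from uninjured optic nerve library 2, and the 9 and 31 border macrophage-like cells of injured libraries 1 and 3 held none. Isg15 had 34.7 CPM (17 UMIs) against 9.91 CPM (69 UMIs), and Irf7 14.3 CPM (7 UMIs) against 6.03 CPM (42 UMIs). Ifit3 was close, at 4.08 CPM from 2 UMIs against 4.16 CPM from 29. Border macrophage-like cells were 44 of 87 from a single library, uninjured optic nerve 2, and the clusters behind the unnamed class differed by tissue and injury, since all of its cells in injured retina fell in 1 cluster that held no other library's cells.

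**Figure D3:**
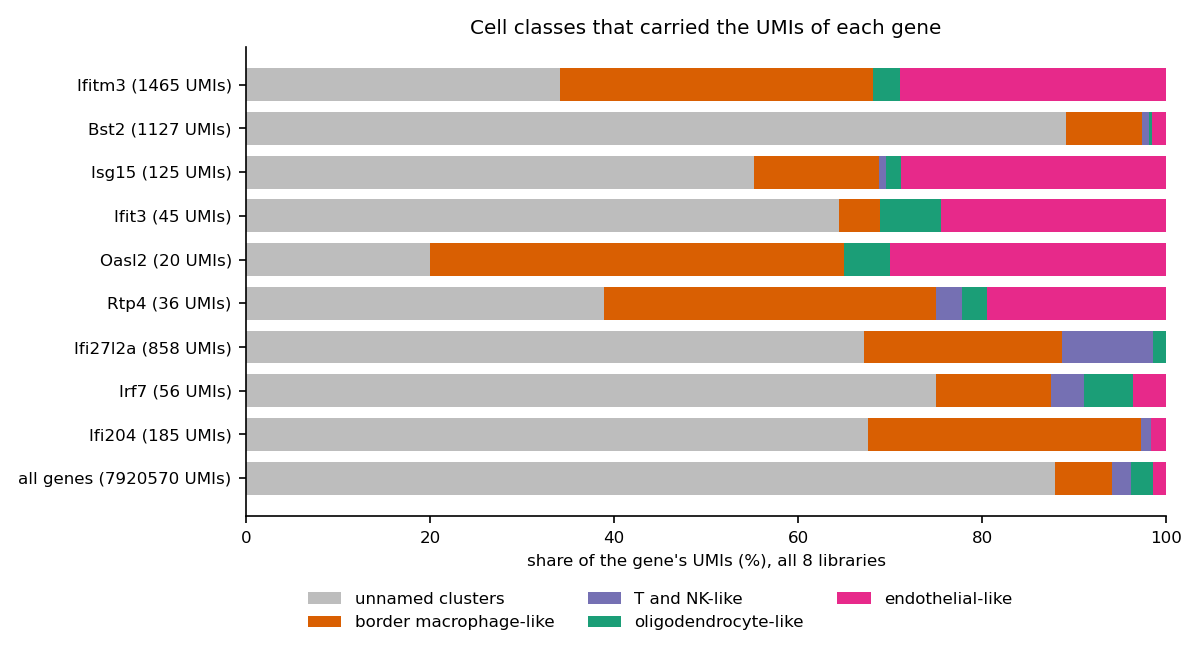
Share of each gene's UMIs (horizontal axis, %) that lay in each cell class, over all 8 libraries, with all genes as the lowest bar. Border macrophage-like cells held 6.19% of all UMIs, but 34.1% of Ifitm3, 29.7% of Ifi204 and 45% of Oasl2 UMIs. The Bst2 bar is close to that of all genes.

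Detection of several listed genes in 1 cell was compared as the share of cells with a UMI of at least 3 of the 9. This share was 5.48% and 10.1% in injured optic nerve libraries 1 and 3, against 24.3% and 7.14% in uninjured libraries 2 and 4. It was 37.6% and 15.8% in the injured retina pools, against 32.3% and 25.0% in uninjured retina libraries 5 and 6. The groups overlapped in both tissues. Averaged over tissues, the injured minus uninjured difference was -4.92 percentage points (exact two-sided permutation p = 0.444 over 36 assignments, with 0.0556 as the smallest p possible), so no p under 0.05 could be reached.

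This share depends on depth. Cells with none of the 9 had a median of 1206 UMIs and cells with 3 a median of 13219 UMIs. When 1000 UMIs were drawn from every cell and the 297 shallower cells were dropped, the expected share was 2.09% and 0.649% in injured optic nerve, against 6.38% and 3.07% in uninjured optic nerve, and 1.13% and 0.488% in injured retina, against 4.17% and 1.49% in uninjured retina. In each tissue both injured values lay below both uninjured ones, a difference of -2.69 points at the smallest p the design allows (exact permutation p = 0.0556). Border macrophage-like cells, whose share was 42.7% in uninjured optic nerve library 2, had 3 or more genes in 48.3% of cells, against 12.8% in the unnamed clusters. Without all 4 named classes the unthinned difference turned to 6.65 points (exact permutation p = 0.278), with 5.84% in injured optic nerve against 1.61% in uninjured optic nerve and 36.6% in injured retina against 27.5% in uninjured retina. No share at equal depth was computed without these classes, so 6.65 points cannot be set against the thinned -2.69 points. With all classes kept but without injured retina pool 3 and 4, the unthinned difference was 0.54 points.

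**Figure D4:**
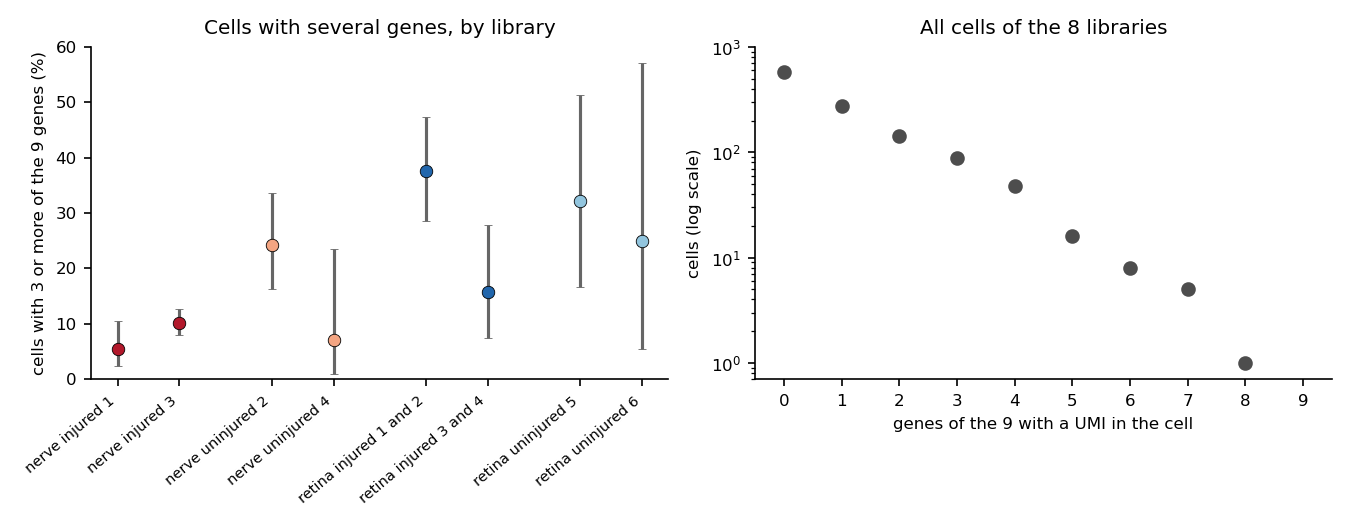
Left, the share of cells with a UMI of at least 3 of the 9 genes per library, with exact 95% intervals for counting error. Right, the number of cells (log scale) by how many of the 9 genes they carried, with 583 cells carrying none and 1 cell carrying 8. The shares of injured and uninjured libraries overlap in both tissues.

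A small set of cells carried 5 or more of the genes. The 16 cells with exactly 5 had a median of 14551.5 UMIs, against 1206 UMIs in cells with none, and the part of depth was not tested. Of the 5 genes Isg15, Irf7, Ifit3, Oasl2 and Rtp4, 28 cells carried 2 or more, and 3 cells carried 4 or more. At least 5 of the 9 genes were seen in 30 cells (2.57% of all), of which 13 were border macrophage-like, 2 endothelial-like and 15 in the unnamed clusters. The cell with 8 genes came from injured retina pool 1 and 2, with 15364 UMIs in all, of which 11 were Ifitm3, 9 Ifit3, 8 Ifi204, 4 Rtp4, 3 Bst2, 2 Isg15, 2 Irf7 and 1 Ifi27l2a. A cell of injured optic nerve library 3 carried 7 genes, with 28 Ifitm3, 22 Ifi27l2a, 13 Bst2 and 8 Irf7 UMIs among 21757. The shallowest of the 30 had 759 UMIs in all, came from uninjured optic nerve library 2 and held 15 UMIs of 6 listed genes. Of the 30 cells, 1 came from uninjured retina, whose libraries held 31 and 12 cells.

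Within the 682 cells of injured optic nerve library 3, which share 1 library, 34 of the 36 pairs of listed genes had a Pearson correlation above 0 between their ln values across cells. The share of pairs above 0 among other genes was not computed. The median was 0.11, the highest 0.31 for Ifitm3 with Rtp4 (5 cells with both), and the lowest -0.02 for Ifi27l2a with Oasl2 (0 cells with both). Rtp4 was seen in 7 and Oasl2 in 3 of these cells, so such values rest on very few cells. The genes whose ln value ran most like the mean of the 9 scaled genes, among 7479 candidates with a UMI in at least 5% of these cells, were Slfn5 (0.37), Ifi203 (0.30), Ifi202b (0.27), Clec4a3 (0.26), Klf4 (0.26), Ifitm2 (0.26), Txlng (0.25), Fgl2 (0.25), Ifi207 (0.24) and Lst1 (0.24). The median candidate stood at 0.04 and the 95th percentile at 0.13. Slfn5, Ifi203, Ifitm2 and Ifi207 were also on the interferon pathway lists. The share of pathway-list genes among all candidates was not computed. Ifitm2 also shares 50-base windows with the listed Ifitm3, so reads could be exchanged between them. The score itself correlated with the log of a cell's depth at 0.26. These cells also mixed classes, with 31 border macrophage-like, 50 oligodendrocyte-like and 4 endothelial-like cells. Over all libraries Slfn5, Ifi203, Ifitm2 and Ifi207 had 53.0, 188, 1095 and 396 CPM in border macrophage-like cells. They had 12.2, 5.74, 177 and 56.3 CPM in the unnamed clusters. The parts of depth and of cell class in each value were not tested.

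The wider pathway was followed through lists of ligands, receptors, signalling and transcription factors, sensors, and other induced genes. Of 10 listed interferon genes only Ifng, the gene of interferon gamma, had a UMI, with 15 UMIs in 6 cells. All 6 were T and NK-like cells, and they gave 6 and 9 UMIs in the injured retina pools and 0 UMIs in uninjured retina and in optic nerve, where a count of 0 allows 21.01 and 52.8 CPM in uninjured retina. The 2 injured pools stood at 4.22 and 28.9 CPM.

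In injured against uninjured retina, 43 of 134 pathway genes could be tested, and edgeR called 7 higher and 7 lower, beside 9.99% of all tested genes higher and 9.72% lower. Their median log2 change was 0.42, against 0.07 over all genes. Among receptors the 2 chains for interferon gamma went in opposite directions. Ifngr1, the ligand-binding chain, had 779 and 766 CPM in injured retina, against 413 and 405 CPM in uninjured retina (log2 0.93 ± 0.27, edgeR adjusted p = 0.0336). Ifngr2, the other chain, had 106 and 64.3 CPM in injured retina, against 245 and 299 CPM in uninjured retina (log2 -1.54 ± 0.34, edgeR adjusted p = 0.0105).

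Among signalling genes the transcription factor Stat3 had 259 and 351 CPM in injured retina, against 42.0 and 88.0 CPM in uninjured retina (log2 2.40 ± 0.41, edgeR adjusted p = 0.00225). The kinase Jak1 was also higher (log2 1.499 ± 0.35, edgeR adjusted p = 0.0130). Socs3, a feedback inhibitor of Jak kinases, had 643 and 762 CPM in injured retina, against 3117 and 2604 CPM in uninjured retina (log2 -2.02 ± 0.29, edgeR adjusted p = 0.000848). The transcription factor Irf5 was lower as well (log2 -1.17 ± 0.34, edgeR adjusted p = 0.0319).

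Among induced genes Slfn8 (106 UMIs in injured retina) and Ifi44 (96 UMIs) had 0 UMIs in uninjured retina. Against a floor of 3 UMIs over that group they were at least 4.07-fold and 3.69-fold higher. B2m, the light chain of MHC class I, was higher by 1.09 ± 0.30 in log2 (edgeR adjusted p = 0.0258). The chemokine genes Cxcl10 (log2 -2.82 ± 0.60, edgeR adjusted p = 0.00899) and Ccl12 (-1.504 ± 0.44, edgeR adjusted p = 0.0353) were lower. Ifi30, a lysosomal thiol reductase, was lower as well (log2 -1.44 ± 0.28, edgeR adjusted p = 0.00554). T and NK-like cells, seen in retina in the injured pools alone, differed from the unnamed clusters over all libraries in many of these genes. They had more Stat3 (545 against 119 CPM), Jak1 (613 against 162 CPM) and Ifngr1 (798 against 391 CPM), and less Ifngr2 (43.3 against 192 CPM) and Socs3 (217 against 664 CPM). They were at 0 for Irf5, Cxcl10, Ccl12, Ifi30 and Ifi44, and close to the unnamed clusters for B2m (1677 against 1703 CPM). Their part in these changes was not tested.

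In optic nerve, 49 pathway genes were tested by limma and none passed in either direction, beside 0.359% of all genes higher and 0.208% lower. The smallest p belonged to Socs3, with 941 and 586 CPM in injured libraries, against 1287 and 2520 CPM in uninjured libraries (-0.85 ± 0.26 in mean ln value, limma adjusted p = 0.223), and to Stat2, with 22.0 and 14.7 CPM in injured libraries, against 31.3 and 71.3 CPM in uninjured libraries (-0.20 ± 0.07, limma adjusted p = 0.319). For both genes the injured libraries lay below the uninjured ones. The interaction passed for 5 pathway genes, namely Ifngr2 (0.87) above 0 and Stat3 (-1.08), Jak1 (-0.87), Slfn8 (-0.42) and Stat2 (-0.39) below 0, with limma adjusted p-values of 0.00497 to 0.0225, beside 1.7% of all genes above and 3.91% below 0.

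Between injured tissues, 14 of the 49 pathway genes were lower in optic nerve than in retina by limma and none was higher, beside 12.7% of all genes lower and 0.755% higher. Ifngr1 (-1.28 ± 0.21 in mean ln value, limma adjusted p = 0.00146), Stat3 (-0.88, limma adjusted p = 0.00122) and Jak1 (-0.88, limma adjusted p = 0.00122) were among them. Between uninjured tissues 10 were lower in optic nerve and 2 higher, beside 8.25% and 1.77% of all genes. Ccl12 (-1.12), Ifngr2 (-0.75), Socs3 (-1.35) and B2m (-0.89) were lower (limma adjusted p-values of 0.00172 to 0.0281), while the 2 higher ones, Stat2 and Slfn8, had 0 UMIs in uninjured retina. These comparisons share libraries with the injury contrasts and are not independent of them.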

How the data were processed

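Single cells of 8 libraries were read from 1 table. For retina the authors deposited raw UMI counts. For optic nerve the deposited values are natural log (ln) values of 1 plus 10000 times UMIs over the total of the cell, as the values themselves show, and whole UMI counts were recovered for 100% of 1374534 of them (tolerance 0.01). The submitters' processing notes name Cell Ranger 1.3, bcl2fastq 2.17.1.14, Seurat 4.0.3 and mm10. The authors kept cells with 200 to 6500 genes, per the labels, and those in the table hold 205 to 6231. No doublet caller was run, and 2 barcodes occurred in 2 libraries each. Libraries held 56838 to 5234954 UMIs.

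UMIs were summed by library. For crush in retina the 4 retina libraries were fitted by edgeR 4.0.16 (TMM, filterByExpr, quasi-likelihood test). The other contrasts used limma 3.58.1 with a trend, on library means of ln values in all 8 libraries, where 10% of cells or more had a UMI of the gene. Fits that include uninjured retina cover the earlier entries alone, and fits over both tissues also needed a UMI of the gene in each tissue. Benjamini-Hochberg adjustment ran over all genes tested, and calls were made under 0.05. Alternatives were DESeq2 1.42.0, edgeR on recovered counts, other filters and scales, left-out cell classes and left-out libraries, some of them (such as leaving out all 4 named classes) added after the data were seen. The scripts were tested on simulated data. Clustering used scanpy 1.11.5, with 2000 variable genes reduced to 30 components, graphs of 15 neighbours, and Leiden at a resolution of 0.5. Names needed 2 markers of a list among the 10 leading genes and 3 among 50, and endothelial-like cells needed 5 markers. Intervals are exact (Clopper-Pearson, 95%), a zero count was read as allowing 3 counts, and both cover counting error only.

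All 9 genes were named in every comparison. Pathway genes were named from those past the threshold, at most 6 in each direction by smallest p, or the 2 with the smallest p where none passed. The members, lists and tests were chosen with earlier results of these data known.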

Additional observations from a re-analysis of the deposited data

Results flagged for a closer look

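By limma the effect of crush on Bst2 differed between the tissues by an interaction of 0.66 in mean ln value (SE 0.18, limma adjusted p = 0.0402), a call that depended on the fit. Bst2 stood at 119 and 153 CPM in injured optic nerve, against 154 and 107 CPM in uninjured optic nerve, and at 96.4 and 90.1 CPM in injured retina, against 329 and 194 CPM in uninjured retina. Uninjured retina, whose annotation or merging differed, had the 2 highest values of the 8 libraries.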

How the results depend on the processing

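Of 425 alternative values, 276 kept their direction and their side of the threshold, or stayed close to the reported count. In retina, listed genes called fell to 1 with DESeq2, limma or all 4 named classes left out, and ranged over 0 to 2 with 1 library left out (1 without either injured pool). Genes called in all were 341 with DESeq2, and 415 to 699 with 1 library left out (428 without pool 1 and 2). In optic nerve the listed genes called were 1 with edgeR on recovered counts, 5 with edgeR without injured library 1, 3 with edgeR without uninjured library 2, and 0 to 1 in limma with 1 library left out. Genes called there in all were 1 with no filter, 9 in cells with at least 1000 UMIs, 81 without all 4 named classes (91 with edgeR), 53 with edgeR, 387, 53 and 52 with edgeR without injured library 1, injured library 3 and uninjured library 2, and 7 to 67 in limma with 1 library left out. The Bst2 interaction left 0 listed genes called with no filter, on log2(CPM + 10), in cells with at least 1000 UMIs, without the T and NK-like, oligodendrocyte-like and endothelial-like cells, without all 4 classes and with edgeR (also without all 4 classes), and 0 to 1 with 1 library left out. Genes with an interaction were 28, 102, 114 and 182 under the first 4 of these, 72 with edgeR, 67 with edgeR without all 4 classes, and 86 to 541 with 1 library left out (157 and 106 without injured retina pool 1 and 2 or 3 and 4). Between injured tissues 0 listed genes were called with no filter, on log2(CPM + 10), without the 3 classes, in cells with at least 1000 UMIs, with the filter set in 2 libraries, or with edgeR with and without all 4 classes, and 0 to 1 with 1 library left out. Genes called in all were 440 with no filter, 87 on log2(CPM + 10), 169 in the deeper cells, 383 with edgeR, 262 with edgeR without all 4 classes, and 143 to 1085 with 1 library left out (197 and 290 without either retina pool). Between uninjured tissues 2 listed genes were called with no filter and 0 with edgeR without all 4 classes, and genes called in all were 342 in the deeper cells, 120 with edgeR, 14 with edgeR without all 4 classes, and 227 to 907 with 1 library left out. The sign turned for crush in retina in Ifitm3 without uninjured library 5 (0.27, against -0.72 without library 6) and Ifi27l2a in limma (0.19). In optic nerve it turned for Ifi27l2a without all 4 classes (0.031), without uninjured library 2 (0.10, against -0.33 without library 4) and with edgeR without injured library 3 (0.21) or uninjured library 2 (1.67), and for Bst2 without uninjured library 4 (-0.00054, against 0.20 without library 2) and with edgeR without injured library 3 (-0.057). The Ifi27l2a interaction turned on log2(CPM + 10) (0.014) and with edgeR without all 4 classes (0.42). Between injured tissues Ifitm3 turned on log2(CPM + 10) (0.82), in the deeper cells (0.0086), without retina pool 1 and 2 (0.082) and with edgeR (0.93), and Bst2 did so on log2(CPM + 10) (0.49), in the deeper cells (0.096), with edgeR (0.64), with edgeR without all 4 classes (0.47), without retina pool 1 and 2 (0.061) and without optic nerve library 1 (0.053, against -0.13 without library 3). Between uninjured tissues Ifitm3 turned without all 4 classes (-0.22) and Ifi27l2a without optic nerve library 4 (0.094, against -0.34 without library 2) and with edgeR (0.15). The share of cells with 3 or more genes differed by 6.65 points without all 4 classes, and by -10.4 to 0.54 points with 1 library left out. The cause of these shifts was not tested. Genes with few UMIs could not be tested in most contrasts, and with 2 libraries per group a lone library is assumed to vary like the others. Injured retina and injured optic nerve share the numbers 1 and 3, through the pools, though no label says that these mark 1 animal, and deviations of libraries with a shared number correlated at -0.18 over 5298 genes. With the replicate number as a block, 0 listed genes (Ifi27l2a at limma adjusted p = 0.0654) and 496 genes in all were called between these groups. With the numbers crossed, 0 listed genes and 658 in all were called. The other groups compared share fewer than 2 numbers and allow no block.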
